A study of Mus musculus with 11 samples.

Results

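The genes described here are the nuclear-encoded subunits of oxidative phosphorylation, measured by 3′ mRNA sequencing in primary mouse microglia kept alone or beside neurons. They were chosen by symbol: rows that start with Nduf (assembly factors named Ndufaf left out), Uqcr, Cox4 to Cox8 or Atp5, together with the 4 Sdh genes, Cyc1 and Cycs. Of 89 rows with such a symbol, 87 had at least 1 count and are the members, out of 16934 genes in the table and 14106 with a count. Cox7b2 and Ndufa4l2 had no count in any of the 11 libraries. The members comprise 41 genes named for complex I, 4 for complex II, 9 for complex III, Cycs, 15 for complex IV and 17 for the ATP synthase, also called complex V. Ndufs5-ps and Ndufa11b of complex I and Cox7c-ps1 of complex IV are pseudogenes, and they are kept in all sums. Apart from the need for at least 1 count, the rule uses symbols alone.

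All 11 libraries came from unpassaged primary microglia of C57BL/6 mice, prepared from pups at postnatal day 0 to 3 and cultured for 7 to 10 days. Microglia alone, without neurons or fibrils, gave 4 libraries. Microglia kept for 6 h with primary cortical neurons that had been 14 days in vitro and received no treatment gave 3 libraries. Microglia kept for 6 h with such neurons after these had been given 0.1 µM of Atto488-labelled α-synuclein fibrils for 16 h and washed gave 4 libraries. How the microglia were recovered from the neurons is not stated in the labels, and no library of neurons alone was analysed here. Separate cultures or animals within a group are not stated either, so p-values reflect the spread between samples that may be technical. Values for the 3 groups are given in the order microglia alone, untreated neurons, fibril-loaded neurons wherever no group is named. Levels are CPM, the counts of a gene scaled to a common effective library size, and since the kit reads the 3′ end of each transcript they are not divided by length. In such bulk samples, fewer cells with a transcript and less of it per cell cannot be told apart.

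The respiratory chain sits in the inner mitochondrial membrane. Complex I takes electrons from NADH and complex II from succinate, complex III passes them from ubiquinol to cytochrome c, and complex IV gives them to oxygen. The proton gradient built by complexes I, III and IV drives the ATP synthase. Most subunits are encoded in the nucleus and a smaller set in mitochondrial DNA, and the factors NRF1, GABP (an ETS protein) and YY1 are known regulators of many of the nuclear genes. In microglia, a shift between oxidative phosphorylation and glycolysis accompanies changes of activation state.

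Promoter sequences are shown for 5 members as examples with and without motifs of the factors named above, which the choice by symbol did not use. RefSeq (GRCm38.p6, the same chromosome coordinates as mm10) gave 74 promoters for 69 of the 87 members, each running from 250 bases before to 50 bases after a start. Both strands were searched for an NRF1 motif (GCGCA, then 1 base of any kind, then GCGC), an ETS motif (CCGGAAG) and a YY1 motif (AAGATGGC), and none of these contains another. Atp5g3, the most abundant gene for the ATP synthase ring, holds an NRF1 motif at a start inside the gene's span. Cox8a, of complex IV and the most abundant member, holds ETS motifs. Ndufs6, of complex I, holds an NRF1 and a YY1 motif. Atp5md, a small ATP synthase subunit that set libraries of microglia alone apart, holds an ETS motif. Ndufb3, of complex I, holds none of the 3, and is printed because it had the smallest p of any member. Motif letters are in capitals on the strand of the gene, so a motif on the other strand appears as its reverse complement. In Cox8a the capitals mark the stricter ETS form CCGGAAGT, 1 base longer than the form above, on the other strand.
Atp5g3, chr2:73911277-73911576, minus strand: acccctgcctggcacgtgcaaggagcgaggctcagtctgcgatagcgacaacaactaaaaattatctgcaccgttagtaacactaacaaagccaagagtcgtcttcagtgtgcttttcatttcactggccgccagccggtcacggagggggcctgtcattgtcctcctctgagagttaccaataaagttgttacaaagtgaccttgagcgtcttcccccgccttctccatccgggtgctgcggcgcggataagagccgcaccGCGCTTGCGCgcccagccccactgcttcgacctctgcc
Cox8a, chr19:7217567-7217866, minus strand: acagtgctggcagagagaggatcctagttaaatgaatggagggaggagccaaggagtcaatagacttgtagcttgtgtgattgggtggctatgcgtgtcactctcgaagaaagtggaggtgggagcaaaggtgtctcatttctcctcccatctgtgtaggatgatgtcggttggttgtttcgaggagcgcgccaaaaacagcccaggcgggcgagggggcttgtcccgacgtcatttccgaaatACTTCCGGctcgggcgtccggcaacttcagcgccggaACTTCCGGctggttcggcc
Ndufs6, chr13:73328433-73328732, minus strand: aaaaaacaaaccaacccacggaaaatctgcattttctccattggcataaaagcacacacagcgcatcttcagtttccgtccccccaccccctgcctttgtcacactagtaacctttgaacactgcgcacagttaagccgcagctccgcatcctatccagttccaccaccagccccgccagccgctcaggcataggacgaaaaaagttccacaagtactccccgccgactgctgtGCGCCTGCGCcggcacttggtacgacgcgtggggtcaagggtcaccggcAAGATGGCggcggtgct
Atp5md, chr19:47090598-47090897, minus strand: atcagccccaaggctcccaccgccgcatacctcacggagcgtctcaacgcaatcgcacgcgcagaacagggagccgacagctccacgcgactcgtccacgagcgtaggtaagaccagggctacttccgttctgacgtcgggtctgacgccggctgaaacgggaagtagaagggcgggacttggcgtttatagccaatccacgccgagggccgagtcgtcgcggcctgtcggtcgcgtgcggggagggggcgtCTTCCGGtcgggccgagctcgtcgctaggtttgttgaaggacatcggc
Ndufb3, chr1:58586147-58586446, plus strand: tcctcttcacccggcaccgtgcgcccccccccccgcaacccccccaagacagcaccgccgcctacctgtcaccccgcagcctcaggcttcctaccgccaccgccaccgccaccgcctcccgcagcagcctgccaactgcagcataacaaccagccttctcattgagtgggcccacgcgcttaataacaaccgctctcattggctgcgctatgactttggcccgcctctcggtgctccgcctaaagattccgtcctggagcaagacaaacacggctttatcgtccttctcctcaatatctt

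The NRF1 motif was present in 18 of the 74 member promoters (24.3%), against 4.60% of all 32851 promoters in the RefSeq table and 10.4% of the 11594 promoters of genes tested for expression. The ETS motif was present in 17 of 74 (23.0%), against 8.86% of all and 18.4% of tested-gene promoters. The YY1 motif was present in 10 of 74 (13.5%), against 2.75% and 4.65%. At least 1 of the 3 was found in 39 of 74 (52.7%), against 14.7% of all and 29.8% of tested-gene promoters. Stricter forms were also searched: the NRF1 form with T as the free base was in 6.76% of member promoters against 2.12% of tested-gene promoters, while CCGGAAGT was in 6.76% against 8.56%. Among the genes with an NRF1 motif were Sdha, Sdhd, Uqcrc1 and Atp5g2, and among those with a YY1 motif were Ndufb8, Ndufs4 and Atp5pb. These are matches of letters in a fixed window, described without a test.

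Across the whole series, total counts ran from 8253070 to 16802451 per library, and the ribosomal RNA precursor Rn45s took 10.7% to 24.8% of them. Microglial markers summed to 16072 to 17555 CPM in microglia alone, 19585 to 23575 with untreated neurons and 17447 to 23379 with fibril-loaded neurons. The untreated co-cultures thus lay above microglia alone for these markers. The 15 neuronal markers summed to 96.5 to 187 CPM in microglia alone, 5.09 to 36.7 with untreated neurons and 10.3 to 51.9 with fibril-loaded neurons, and Snap25 was at 0 in all libraries; the part of these RNAs in the results below was not tested. Microglia alone libraries 1 and 4 stood apart from the rest for the members. Over the 82 members of at least 10 CPM, their median rank correlation with the other libraries was 0.63 and 0.71, against 0.85 to 0.90 for the other 9, and each was closest to the other of the pair (Spearman's rho 0.84). Over all genes of at least 10 CPM the same medians were 0.71 and 0.72, against 0.73 to 0.80. For results that involve microglia alone, values without these libraries are given beside the main ones where the call, the sign or the size depends on them.

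Subunit transcripts were abundant, and their summed level overlapped between the 3 groups. Together the 87 members made up 1.07% to 1.92% of all counts. Their summed level was 12153, 20327, 14372 and 13789 CPM in the 4 libraries of microglia alone. It was 16062, 16680 and 16808 CPM with untreated neurons and 14908, 18449, 15486 and 15754 CPM with fibril-loaded neurons. Library 2 of microglia alone was the highest of the 11 and library 1 the lowest, and both co-culture groups lay inside that range. The group means were 15160 ± 3570 (SD, n = 4), 16517 ± 399 (n = 3) and 16149 ± 1573 CPM (n = 4). The log2 ratios of these means were 0.12 for untreated neurons against microglia alone, 0.09 for fibril-loaded neurons against microglia alone and -0.03 between the co-cultures. Without libraries 1 and 4 the first became -0.07 and the second -0.09. Libraries 2 and 3, then left for microglia alone, were at 20327 and 14372 CPM, above and below all co-cultures. With any single library left out, the first ran from 0.03 to 0.30 and the second from 0.01 to 0.29. The sign thus depends on which libraries of microglia alone are kept.

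The split among complexes was also similar in every library. Ndufa4 is counted with complex I by its symbol, though it is known as a subunit of complex IV; its mean was 65.7 CPM. Complex I supplied 27.3% to 29.5% of the summed level, the ATP synthase 28.2% to 33.3% and complex IV 23.4% to 29.6%. Complex III supplied 8.47% to 10.8%, complex II 2.57% to 3.85% and cytochrome c 0.37% to 1.03%. Complex I summed to 4318 ± 1133 CPM in microglia alone, 4813 ± 177 with untreated neurons and 4629 ± 555 with fibril-loaded neurons. Complex IV summed to 3998 ± 1080, 4503 ± 227 and 4305 ± 258 CPM, and the ATP synthase to 4739 ± 869, 4932 ± 352 and 4931 ± 561 CPM. Each of these differences between means was smaller than the SD among libraries of microglia alone. The pseudogene Cox7c-ps1, with means of 211, 432 and 376 CPM in the 3 groups, is part of the complex IV sum and of its differences. The log2 ratio of untreated neurons to microglia alone was 0.16 for complex I, 0.17 for complex IV and 0.06 for the ATP synthase, and without libraries 1 and 4 of microglia alone it was -0.041, -0.065 and -0.095. For fibril-loaded neurons the ratios of 0.10, 0.11 and 0.06 became -0.08, -0.11 and -0.08. Complex III summed to 1508 ± 495, 1570 ± 116 and 1616 ± 214 CPM, with ratios to microglia alone of 0.06 and 0.10 that became -0.18 and -0.12 without those libraries. Cycs was at 121 ± 23.5, 96.3 ± 29.5 and 123 ± 17.1 CPM.

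Complex II was the one sum whose libraries did not overlap between untreated neurons and microglia alone. It was 403, 522, 502 and 479 CPM in microglia alone, 619, 641 and 547 CPM with untreated neurons, and 543, 591, 541 and 507 CPM with fibril-loaded neurons. The log2 ratio of means was 0.34 for untreated neurons against microglia alone, 0.20 for fibril-loaded neurons against microglia alone and -0.14 between the co-cultures. Without libraries 1 and 4 of microglia alone the first was 0.24 and the second 0.11. These sums over chosen members carry no p-value.

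**Figure D1:**
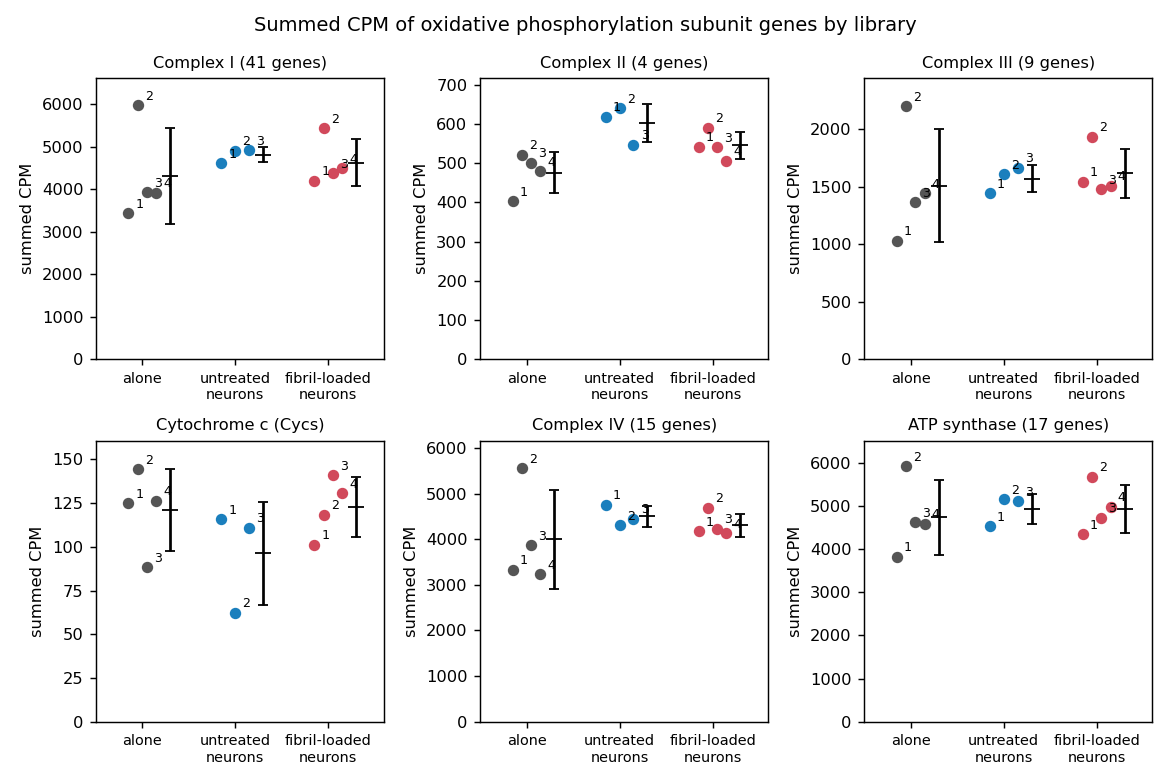
Summed CPM (vertical axes, starting at 0) of the subunit genes of each complex in the 11 libraries, by group; dots are libraries, numbered within their group, and bars are the mean ± SD. Microglia alone spans the widest range in complexes I, III, IV and V, with library 2 highest, while for complex II the untreated co-cultures (547 to 641 CPM) lie above microglia alone (403 to 522 CPM).

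No subunit gene passed the test in any comparison. Beside untreated neurons against microglia alone, 0 of 87 members passed at a Benjamini-Hochberg adjusted p of 0.05 in edgeR's quasi-likelihood test, where 0.639% of 11276 genes did, and 4 members had an unadjusted p under 0.05 (4.60%, against 10.3% of all genes). For fibril-loaded neurons against microglia alone it was 0 of 87, against 0.319% of all genes, with 5 members under 0.05 unadjusted against 8.14% of all genes. Between the co-cultures it was 0 of 87, against 0% of all genes, with 1 member under 0.05 unadjusted against 3.95%. DESeq2 also called 0 members in the 3 comparisons, while it called 453, 224 and 158 of the 11276 genes. The smallest adjusted p among members was 0.232, 0.423 and 1 in the 3 comparisons.

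Members shifted little as a group. The median log2 fold change was 0.05 beside untreated neurons, with 49 members positive and 38 negative, where the median of all genes was -0.05. It was 0.10 beside fibril-loaded neurons against microglia alone (55 positive, 32 negative; all genes -0.04) and -0.03 between the co-cultures (41 positive, 46 negative; all genes 0). Without the microglia alone libraries that stood apart, the member median became -0.05 beside untreated neurons and -0.08 beside fibril-loaded neurons. The sign of both medians thus depends on which libraries are kept. In the comparisons with all libraries 87.4%, 94.3% and 90.8% of members lay within 1 log2 unit of no change, against 65.7%, 72.1% and 73.0% of all genes tested. Members are more abundant than most genes. Of the 82 members of at least 10 CPM the shares were 90.2%, 98.8% and 96.3%. Of all 7534 genes of at least 10 CPM they were 79.2%, 84.6% and 88.5%. Among all genes of at least 50 CPM the shares were 87.6%, 90.9% and 98.4%, and the share of members at that level was not computed. The 95% interval of a member's fold change, not adjusted for the number of genes, reached a median of 0.77, 0.71 and 0.77 log2 units to either side. Changes smaller than that were mostly not detectable in single genes. The threshold on adjusted p is stricter, so larger changes could also be missed. Ndufb3 at 1.42 beside untreated neurons had an edgeR adjusted p of 0.232. The comparisons share the microglia alone or the untreated libraries, so their values are not independent of each other.

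**Figure D2:**
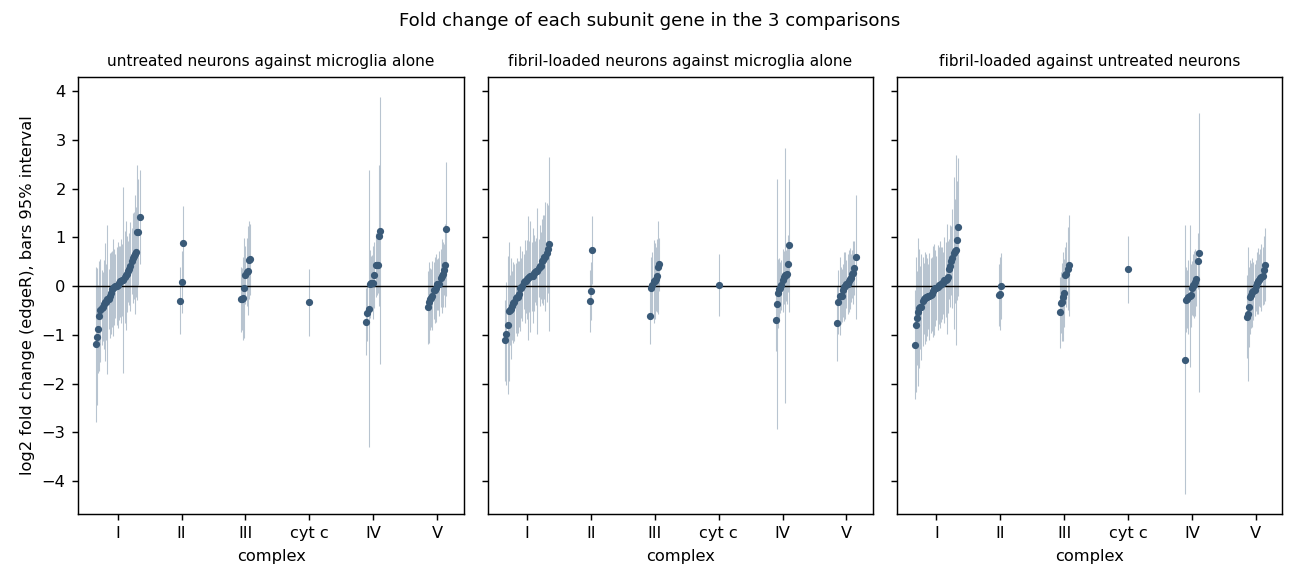
Log2 fold change from edgeR (vertical axis) of the 82 members of at least 10 CPM, ordered within each complex (horizontal axis), in the 3 comparisons; points are genes and bars 95% intervals. Most points lie within 1 log2 unit of 0, the intervals mostly cross 0, and Ndufb3 is the highest complex I point beside untreated neurons at 1.42.

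Complex I is built from a hydrophilic arm that oxidises NADH, with the core subunits of the Ndufs and Ndufv series, and a membrane arm, to which many Ndufa and Ndufb accessory subunits bind. Its most abundant members were Ndufa2, with a mean of 416 CPM over the 11 libraries, and Ndufa7, with 262 CPM, both accessory subunits. Ndufa2 was at 426 ± 158, 354 ± 25.2 and 452 ± 65.1 CPM in the 3 groups. The core subunits Ndufs1, Ndufs3, Ndufs7, Ndufs8, Ndufv1 and Ndufv2 were lower, from a mean of 27.4 CPM for Ndufs8 to 87.6 CPM for Ndufs7.

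Ndufb3, a membrane-arm accessory subunit (chr1:58586397-58595964), had the smallest p of all members in any comparison. It was at 32.6, 211, 142 and 38.5 CPM in microglia alone, 307, 279 and 263 CPM with untreated neurons, and 224, 152, 141 and 202 CPM with fibril-loaded neurons. All 3 untreated co-cultures lay above all other libraries of both other groups, and libraries 1 and 4 of microglia alone lay far below the other 9. The log2 fold change beside untreated neurons was 1.42 ± 0.47 (SE), with a p of 0.00625 and an adjusted p of 0.232 in edgeR's quasi-likelihood test. Without libraries 1 and 4 it was 0.68 ± 0.33, adjusted p = 0.731. Against untreated neurons, the fibril-loaded co-cultures had a log2 fold change of -0.65 ± 0.46, adjusted p = 1.

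Ndufs1, the large iron-sulphur core subunit, was at 32.2, 33.0, 52.0 and 32.4 CPM in microglia alone, 4.35, 22.6 and 27.6 CPM with untreated neurons, and 13.4, 43.7, 66.6 and 44.2 CPM with fibril-loaded neurons. Its untreated co-cultures lay below microglia alone, with a log2 fold change of -1.04 ± 0.68 and an edgeR adjusted p of 0.678, and the fibril-loaded libraries spread over both. Ndufv2, a core subunit of the NADH-oxidising module, was the member with the smallest p between the co-cultures. It was at 85.0, 81.4 and 22.1 CPM with untreated neurons and 13.9, 52.8, 21.5 and 21.2 CPM with fibril-loaded neurons, against 64.0, 43.8, 53.3 and 54.5 CPM in microglia alone. Untreated library 3 lay among the fibril-loaded libraries, so the groups overlapped, and the log2 fold change of -1.20 ± 0.54 had a p of 0.0375 and an adjusted p of 1.

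Complex II, or succinate dehydrogenase, also belongs to the tricarboxylic acid cycle and has no mitochondrially encoded subunit. Sdha holds the flavin and oxidises succinate, Sdhb carries the iron-sulphur clusters, and Sdhc and Sdhd anchor the enzyme in the membrane. Sdhc (chr1:171129157-171150640) was at 81.1, 244, 231 and 82.5 CPM in microglia alone, 312, 323 and 254 CPM with untreated neurons, and 232, 262, 274 and 297 CPM with fibril-loaded neurons. Libraries 1 and 4 of microglia alone were again the 2 low ones, and libraries 2 and 3 lay close to the lowest co-cultures. The log2 fold change was 0.89 ± 0.36 beside untreated neurons (edgeR adjusted p = 0.397) and 0.74 ± 0.34 beside fibril-loaded neurons (adjusted p = 0.592), and 0.32 ± 0.28 and 0.19 ± 0.27 without libraries 1 and 4.

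Sdhb and Sdha did not share that pattern. Sdhb was at 174 ± 28.3, 184 ± 34.6 and 163 ± 46.4 CPM in the 3 groups. Sdha was at 142 ± 45.6, 116 ± 17.3 and 115 ± 26.9 CPM. Of the complex II genes, Sdhc had the largest difference in mean CPM between untreated neurons and microglia alone. Sdhd was close to the limit of detection, from 0 to 12.9 CPM, with its 3 untreated co-cultures at 3.26, 2.42 and 12.9 CPM and every other library at or below 1.28 CPM.

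Complex III members include the core proteins Uqcrc1 and Uqcrc2, the Rieske iron-sulphur protein Uqcrfs1, cytochrome c1 (Cyc1) and small accessory subunits. The accessory subunits Uqcrq, with a mean of 433 CPM, and Uqcr10, with 275 CPM, were the most abundant, and Cyc1 the least with 53.3 CPM. Uqcrc1 was at 92.8, 118 and 105 CPM with untreated neurons and 59.7, 88.9, 79.9 and 61.8 CPM with fibril-loaded neurons, so the co-cultures did not overlap, while microglia alone spanned 51.5 to 93.8 CPM. Its log2 fold change between the co-cultures was -0.54 ± 0.35, edgeR adjusted p = 1. Uqcrh, the hinge subunit that binds cytochrome c1, was at 178, 331, 259 and 303 CPM in microglia alone and 149, 185, 160 and 209 CPM with fibril-loaded neurons, with a log2 fold change of -0.61 ± 0.28 and an adjusted p of 0.595. Cyc1 was at 48.7 ± 14.9, 60.8 ± 13.3 and 52.3 ± 17.8 CPM in the 3 groups.

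Complex IV held the most abundant member, Cox8a, with a mean of 834 CPM over the 11 libraries and 819 ± 178, 855 ± 231 and 833 ± 48.9 CPM by group. Several complex IV subunits exist as alternative isoforms, and in these microglia the widely expressed form was the abundant one in each pair. Cox6a1 had a mean of 576 CPM and the heart and muscle form Cox6a2 6.39 CPM. Cox6b1 had a mean of 501 CPM and the testis form Cox6b2 1.11 CPM. Cox7a2 had a mean of 396 CPM and the heart and muscle form Cox7a1 12.3 CPM, and Cox7a2l, which takes part in joining complexes III and IV into supercomplexes, had 239.5 CPM. Symbols for Cox4i2, Cox8b and Cox8c were not among the members.

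Cox4i1 and Cox7a2l were lower in all untreated co-cultures than in all libraries of microglia alone. Cox4i1, a core-binding subunit through which ATP is known to act on the enzyme (chr8:120668225-120674209), was at 323, 278, 229 and 264 CPM in microglia alone, 191, 185 and 185 CPM with untreated neurons, and 295, 276, 311 and 190.3 CPM with fibril-loaded neurons. The untreated co-cultures agreed within an SD of 3.63 CPM, and 1 fibril-loaded library reached down to them. The log2 fold change was -0.55 ± 0.28 beside untreated neurons (edgeR adjusted p = 0.503), -0.03 beside fibril-loaded neurons and 0.52 ± 0.28 between the co-cultures (adjusted p = 1). Cox7a2l was at 522, 256, 230.2 and 264 CPM in microglia alone, 215, 187 and 175 CPM with untreated neurons and 200.4, 182, 268 and 136 CPM with fibril-loaded neurons. Its log2 fold change of -0.73 ± 0.33 beside untreated neurons (adjusted p = 0.452) was -0.34 ± 0.32 without libraries 1 and 4, of which library 1 was far above the others.

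The ATP synthase consists of the catalytic F1 part, with Atp5a1 and Atp5b as its large subunits, and the membrane-bound Fo part, whose ring is made of the c subunit. The genes Atp5g1, Atp5g2 and Atp5g3 encode the same mature c subunit, and their means over the 11 libraries were 127, 178 and 687 CPM. Atp5g3 was at 653 ± 122, 673 ± 44.0 and 732 ± 124 CPM in the 3 groups. Atp5a1 varied least of the 82 members of at least 10 CPM, with an SD of 0.11 times its mean and values from 373 to 536 CPM, followed by the small subunit Atp5mpl at 0.14 and Atp5g3 at 0.15. Atp5l, which helps synthase dimers form, was at 673 ± 291, 559.5 ± 86.4 and 586 ± 92.0 CPM. No ATP synthase gene had an unadjusted p under 0.05 in any comparison.

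Counting all members by range, 9 of 87 (10.3%) had untreated co-cultures that did not overlap with microglia alone, against 10.3% of all genes. Atp5mpl, Cox5a, Ndufb3, Sdhc and Sdhd were higher, and Cox4i1, Cox7a2l and Ndufs1 were among those lower. Between fibril-loaded neurons and microglia alone 1 of 87 (1.15%) did not overlap, against 5.62% of all genes. Between the co-cultures 4 of 87 (4.60%) did not overlap, against 4.68% of all genes, and these were Cox6c, Ndufb3, Sdhd and Uqcrc1, all lower with fibril-loaded neurons. The first and last of these shares were close to the background.

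The largest differences among members were between libraries of microglia alone. Cox7c-ps1 was at 16.8, 405, 403 and 17.5 CPM in libraries 1 to 4, and at 293 to 468 CPM in the 7 co-cultures. Atp5md was at 15.6, 291, 248 and 20.0 CPM in microglia alone, 291, 290.2 and 388 CPM with untreated neurons and 129, 265, 151 and 324 CPM with fibril-loaded neurons. Ndufa1, a short membrane-arm subunit encoded on chromosome X, was at 11.96, 331, 209 and 25.96 CPM in microglia alone, and at 128 to 393 CPM in the co-cultures. Ndufb1 was at 34.9, 232, 130 and 22.0 CPM, and at 138 to 294 CPM in the co-cultures. In each case libraries 2 and 3 of microglia alone lay among or next to the co-cultures, and libraries 1 and 4 stood well below.

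Of the 82 members of at least 10 CPM, 8 in library 1 and 7 in library 4 lay below 0.25 times their own median over the 11 libraries, against 0 to 2 in any other library. As shares these were 9.76% and 8.54%, close to the 10.4% and 9.34% of all genes of at least 10 CPM in the same libraries. The share of all genes was 10.1% in fibril-loaded library 1 and 8.11% in untreated library 1, where 1 and 2 members were low. Libraries 1 and 4 of microglia alone shared 6 of these, namely Atp5md, Cox7c, Cox7c-ps1, Ndufa1, Ndufb1 and Ndufb3. Ndufb4 and Uqcrfs1 were low in library 1 and Ndufa4 in library 4. Among all 7534 genes of at least 10 CPM, 207 (2.75%) were that low in both libraries, against 7.32% of members, and above 50 CPM it was 41 of 3111 genes (1.32%) and 5 of 73 members (6.85%). The pair of libraries was picked from these same values, so these shares are a description without a test. Cox7c and Cox7c-ps1 also share 3′ end sequence and are not separate observations. Rn45s took its largest share of counts in library 1 (24.8%) and its smallest of the 4 in library 4, with libraries 2 and 3 between them at 20.1% and 18.7%. Most members were not low in these libraries: Atp5a1 was at 396, 391, 408 and 536 CPM and Cox8a at 744, 1053, 635 and 845 CPM. What sets the 2 libraries apart was not tested.

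**Figure D3:**
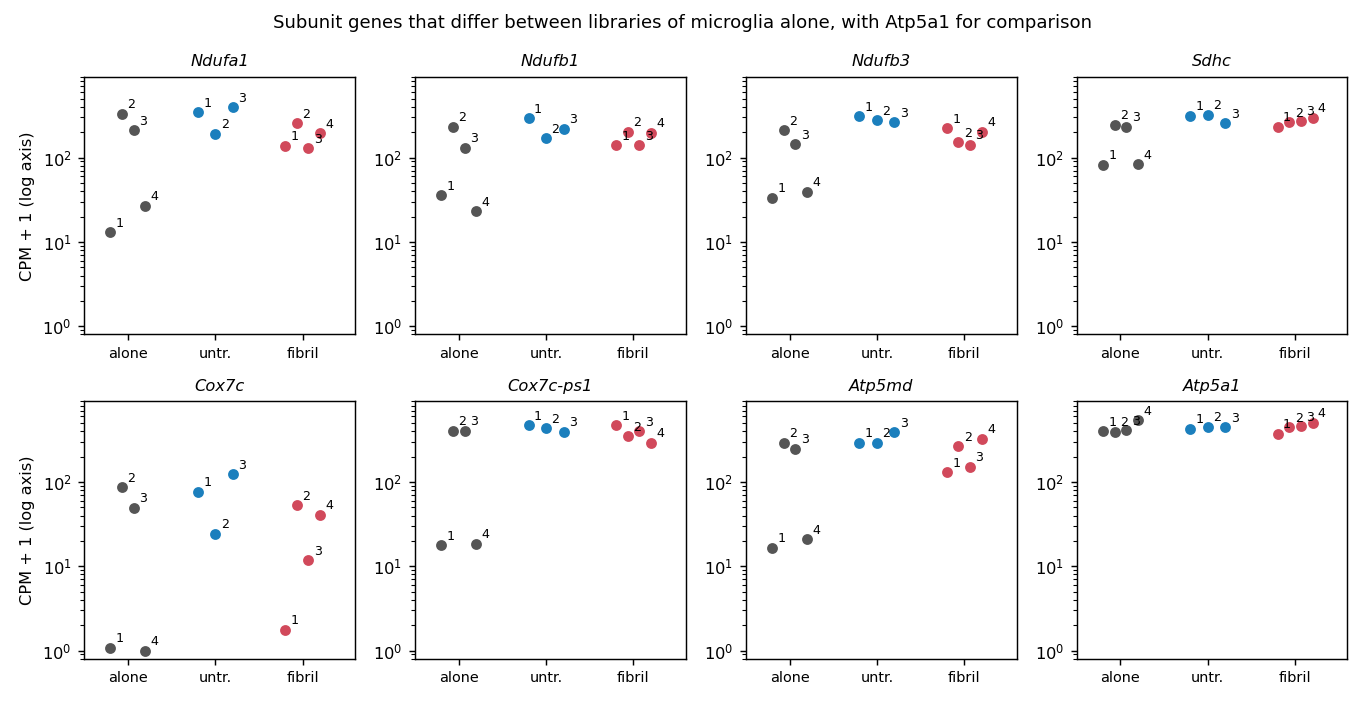
CPM + 1 on a log axis for 8 members in the 11 libraries by group, each dot a library numbered within its group. Libraries 1 and 4 of microglia alone lie well below libraries 2 and 3 and below most co-cultures for 7 of the genes (Cox7c is also low in some fibril-loaded libraries), whereas Atp5a1, shown for comparison, stays between 373 and 536 CPM.

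With libraries 1 and 4 left out, differences beside untreated neurons were smaller for these genes. The log2 fold change of Atp5md was 1.17 ± 0.66 with all libraries and 0.26 ± 0.38 without the 2 libraries. For Ndufa1 it was 1.10 ± 0.66 and 0.20 ± 0.38, for Ndufb1 1.12 ± 0.52 and 0.33 ± 0.36, and for Cox7c-ps1 1.04 ± 0.70 and 0.10 ± 0.28. None of these passed the test in either fit. The median over all members beside untreated neurons was -0.05 without the 2 libraries, and that of all genes tested was -0.02.

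**Figure D4:**
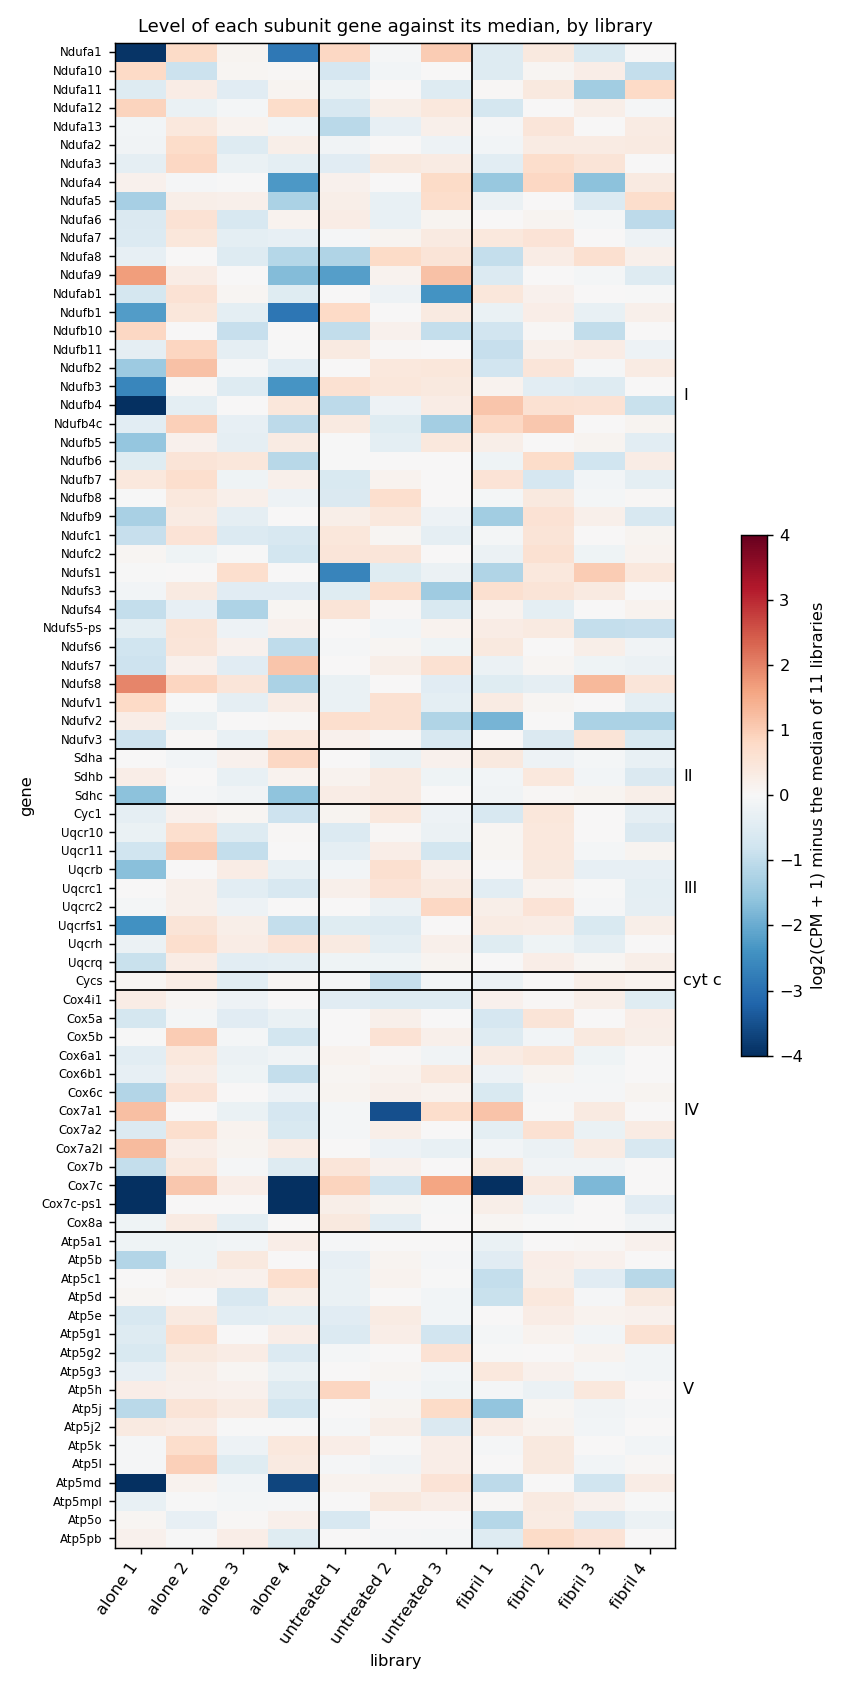
Log2(CPM + 1) of members of at least 10 CPM, each minus its median over the 11 libraries (colour, limited to 4 log2 units either way), with genes in rows by complex and libraries in columns by group. Most cells are pale. Dark blue cells are seen in both microglia alone libraries 1 and 4 at Ndufa1, Ndufb1, Ndufb3, Cox7c, Cox7c-ps1 and Atp5md, and in single libraries at Ndufb4 (alone 1), Cox7a1 (untreated 2) and Cox7c (fibril 1), among others.

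Cox7c, a small complex IV subunit, shares most of its 3′ end sequence with copies, and which gene the reads came from was not tested. Of the runs of 50 bases in the last 300 bases of the Cox7c transcript, 73.3% also occur in the transcripts of 3 other genes, and of these the processed pseudogene Cox7c-ps1 and the gene model Gm12338 were rows of the table with counts. Cox7c itself was at 0.08, 85.5, 48.5 and 0 CPM in microglia alone, 75.5, 23.4 and 122 CPM with untreated neurons, and 0.76, 52.0, 10.8 and 40.1 CPM with fibril-loaded neurons; the count of 0 in library 4 of microglia alone allows up to 0.25 CPM. Summed over the 3 rows the level was 64.6, 1343, 767 and 32.7 CPM in microglia alone, 994, 869 and 1074 CPM with untreated neurons and 651, 952, 568 and 851 CPM with fibril-loaded neurons. Libraries 1 and 4 were thus low for the 3 rows together. With Cox7c and Cox7c-ps1 merged, the log2 fold change beside untreated neurons was 1.05 ± 0.72, edgeR adjusted p = 0.709.

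Ndufs5, a complex I subunit, had far fewer counts than its pseudogene Ndufs5-ps, which lies within the span of Zbtb20 and shares 54.6% of the Ndufs5 end runs. Ndufs5 held a median of 1.35% of the counts of both rows, from 0% to 33.4% by library, with the highest in fibril-loaded library 4. Which gene the reads of Ndufs5-ps came from was not tested. Merged, the level was 139 ± 43.1, 133 ± 11.1 and 125 ± 47.3 CPM in the 3 groups. Of 80 members matched to a protein-coding transcript, 21 shared at least 1 such run with another gene, and 4 shared more than 50%, which were Cox7c, Atp5l, Ndufs5 and Ndufs3. Their levels are uncertain to that extent. Ndufa11b, the remaining pseudogene among the members, was at 22.3, 9.33, 0.09 and 7.68 CPM with fibril-loaded neurons and at or below 0.36 CPM in all other libraries.

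Among genes of 50 to 400 CPM, the SD divided by the mean had a median of 0.31 over 64 members and 0.37 over all 2782 genes, members included. The members' median level in that range was 139 CPM against 93.1 CPM for all, and no test was made. Of members of at least 10 CPM, Cox7c at 0.96, Ndufa9 at 0.77 and Ndufs8 at 0.75 varied most. Ndufa9 ran from 6.28 CPM in an untreated co-culture to 105 CPM in library 1 of microglia alone. After subtracting group means, the pairwise Pearson correlation of log2 levels over the 11 libraries had a median of 0.22 among the 73 members of at least 50 CPM and of -0.0024 among all genes of that level, given as a description since all genes share the libraries and their depth. Ndufb4, Cox7a1 and Cox7c were the 3 members of at least 10 CPM with a library at 0.

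Of the genes that assemble, regulate or feed the chain, 1 passed the test in 1 comparison. That was untreated neurons against microglia alone, where 0.639% of all 11276 genes tested passed. The mitochondrially encoded subunits could not be set beside the nuclear ones, since 0 of their 13 symbols were rows of the table used here. Among 16 complex I assembly factors, 10 for complexes II and III, 4 ATP synthase factors, 13 regulators of mitochondrial biogenesis, 14 tricarboxylic acid cycle genes and 7 carriers and channels tested, none passed in any comparison. Sco1, a copper chaperone for complex IV, was the exception among 21 complex IV assembly factors. It was at 7.11, 15.6, 37.6 and 9.35 CPM in microglia alone, 0, 0 and 0.18 CPM with untreated neurons, and 43.5, 7.58, 10.1 and 15.6 CPM with fibril-loaded neurons. A count of 0 allows up to 0.18 and 0.27 CPM in the first 2 untreated libraries, and the third held 3 counts. Its edgeR adjusted p was 0.0422 for untreated neurons against microglia alone and 0.903 between the co-cultures. The first call was lost when any 1 of 6 of the 7 libraries was left out, every library except untreated 3, and also when only those groups were fitted.

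Among the other genes of these lists, Ucp2, an uncoupling-family carrier of the inner membrane, had the smallest p. It was at 271, 296, 164 and 211 CPM in microglia alone, 668, 533 and 378 CPM with untreated neurons, and 650, 341, 490.3 and 257 CPM with fibril-loaded neurons. All untreated co-cultures lay above microglia alone, and the log2 fold change was 1.16 ± 0.33 (edgeR adjusted p = 0.131). Atpif1, the inhibitor of the ATP synthase in its hydrolysing direction, was at 425 ± 182, 708 ± 154 and 573 ± 194 CPM in the 3 groups. Its 4 libraries of microglia alone were at 323, 642, 500 and 234 CPM, so libraries 1 and 4 were the lowest there. Cs, citrate synthase, was at 40.7 ± 23.7, 75.8 ± 9.63 and 65.5 ± 12.3 CPM, and Idh3b, a subunit of isocitrate dehydrogenase, at 151 ± 53.0, 79.8 ± 9.27 and 113 ± 42.7 CPM. Citrate synthase was low in libraries 1 and 4 of microglia alone, at 20.3 and 22.0 CPM against 51.4 and 69.1 CPM in libraries 2 and 3. The list medians of the log2 fold change beside untreated neurons ran from -0.20 for the biogenesis regulators to 0.15 for the complex I assembly factors.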

How the data were processed

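The members and gene lists were chosen with earlier results of these data known. The deposited values are raw counts per gene symbol, made by the authors from a QuantSeq 3′ FWD library; STAR, Partek, DESeq2 and the mm10 build are named in the submitters' processing notes without versions. A deposited normalized table was not used. Use of strand and removal of duplicate reads are not given in the sources used here. From the counts, edgeR 4.0.16 (R 4.3.3) computed TMM factors on the 11276 genes that passed filterByExpr, CPM over effective library sizes, and a two-sided quasi-likelihood test in 1 fit of the 11 libraries with no term but group. Benjamini-Hochberg adjustment ran over those genes, with a threshold of 0.05. All 87 members passed the filter. A count of 0 allows up to 3 counts, counting error only. Members were named by smallest p (3 per direction and comparison), ranges apart, highest mean per complex, isoform families, and lowest and highest SD over mean; Atp5md, Ndufa1, Ndufb4, Cox5a and Cox7c-ps1 among others were named after their values were seen, and a result that the rule names is not reported here. Merged counts of copies, and fits without microglia alone libraries 1 and 4, were chosen after seeing the data. Libraries are numbered in deposition order, so numbers pair nothing. The code was tested on simulated data. DESeq2 1.42.0 and limma 3.58.1 served as alternatives. Sequences are from RefSeq (GRCm38.p6) and GENCODE M21.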

Additional observations from a re-analysis of the deposited data

Results flagged for a closer look

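Complex sums and named members were examined in each group of 4 libraries for a single library far from the other 3, and 6 of 92 such sets had one, where chance gives about 1 in 20. Atp5a1 was at 536 CPM in library 4 of microglia alone, against 391 to 408 CPM in the other 3. Cox7a2l was at 522 CPM in library 1 of microglia alone, with the next at 264 CPM. Ndufa7 was at 338 CPM in library 2 of microglia alone, with the next at 198 CPM. Ndufs1 was at 52.0 CPM in library 3 of microglia alone, with the next at 33.0 CPM. The complex III sum was 1935 CPM in library 2 with fibril-loaded neurons, with the next at 1543 CPM. Ndufa2 was at 355 CPM in library 1 with fibril-loaded neurons, with the next at 479 CPM.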

How the results depend on the processing

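The count of members called beside untreated neurons was 0 in the reported fit, 2 with no filter on low counts (Atp5md and Ndufb3; 234 of 14106 genes called) and 5 with limma-voom (Atp5md, Cox7c-ps1, Ndufa1, Ndufb1 and Ndufb3; 139 of 11276 genes); the cause was not tested. All of these are low in microglia alone libraries 1 and 4, and without those libraries 0 members were called. In the other comparisons 0 members were called under every alternative run, and leaving out any 1 library gave 0 in all 3 comparisons. Of 1966 results for the 39 named members under alternatives, 1963 kept their side of the threshold. The other 3 newly passed it (Ndufb3 under both settings above, Ndufb1 under limma-voom). A reversed sign was counted only where either fit passed the threshold and was found in 0, so signs of the other results were not compared. Some signs did change. Beside untreated neurons, for example, the log2 fold change of Atp5g2 was 0.24 with all libraries and -0.15 without libraries 1 and 4. The complex IV ratio of untreated neurons to microglia alone, 0.17 on the log2 scale, was 0.41 from means of log2(CPM + 1) and -0.065 without libraries 1 and 4. The median log2 fold change of members ran from -0.05 to 0.15 beside untreated neurons, from -0.08 to 0.22 beside fibril-loaded neurons and from -0.04 to -0.02 between the co-cultures over alternatives other than single left-out libraries. With single libraries left out, the ranges were -0.04 to 0.26, 0.02 to 0.29 and -0.13 to 0.006 in the same order. Genes called on the pathway lists beside untreated neurons numbered 1 as reported, 2 with no filter (Sco1 and Ucp2), 3 with DESeq2 (Sco1, Ttc19 and Ucp2), 0 with only those groups fitted and 0 without libraries 1 and 4, and 0 to 1 with single libraries left out; between the co-cultures DESeq2 called 1 (Sco1). Counts of all genes called are given above for the fits with no filter and with DESeq2. No paired analysis was possible because the labels give no replicate numbers. With 3 or 4 libraries a group, a median interval of 0.77 log2 units limits what single members can show. Sequence shared between copies limits what Cox7c and Ndufs5 can show.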
